A study of Mus musculus with 21 samples.

Results

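The cytosolic ribosomal protein genes were taken from an RNA-seq table of mouse germ cells by their symbols: Rpl, Rplp or Rps with a number and at most 1 further letter and digit, plus Rpsa and Rpl36al. This rule reads no expression value, leaves out symbols that mark pseudogenes, and found 85 of 37620 genes. Of these, 46 encode large subunit proteins, 31 encode small subunit proteins and 8 are paralogs of another member. The study asked how gene expression and chromatin relate to the use of meiotic recombination sites, and its RNA-seq libraries come from 4 samples of C57BL/6J (B6) males at 12 days post-partum, labelled wt. Germ cells were enriched from testes by collagenase and trypsin digestion and are labelled spermatocytes. The samples are called here by their numbers, 186wt, 343wt, 444wt and 456wt, each with 3 libraries. No treatment, mutant or other age was given, so the comparisons are between sample numbers and between paralogs and their parents.

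The ribosome has a small subunit, which decodes the mRNA, and a large subunit, which joins amino acids. Each cytosolic ribosome carries 1 copy of nearly every ribosomal protein, and the acidic stalk proteins are the known exception. Mammalian genomes hold many processed pseudogenes of these genes, and a few functional paralogs are known from testis, such as Rpl10l and Rpl39l, whose parents lie on the X chromosome, which is silenced in male meiosis. Many mRNAs of the translation machinery begin with a C and a run of pyrimidines, the terminal oligopyrimidine (TOP) motif, through which their translation is controlled.

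The 5′ ends of some members are shown because this motif sits at the first transcribed bases. Each window below has 10 bases before the annotated start and 20 bases from it, on the gene's strand in GRCm38.p6, from RefSeq. Capitals mark a run of at least 6 C or T that opens with C within 5 bases of the start.
Rpl13a, chr7:45128726-45128755, minus strand: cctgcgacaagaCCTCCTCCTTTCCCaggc
Rps24, chr14:24490668-24490697, plus strand: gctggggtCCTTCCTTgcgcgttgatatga
Rps27, chr3:90213629-90213658, minus strand: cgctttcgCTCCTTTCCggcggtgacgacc
Rps2, chr17:24720053-24720082, plus strand: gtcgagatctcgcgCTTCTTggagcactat
Rpl22l1, chr3:28805498-28805527, plus strand: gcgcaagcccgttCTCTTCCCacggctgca
Rpl10l, chr12:66284382-66284411, minus strand: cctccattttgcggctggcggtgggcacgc
Rpl39l, chr16:10170218-10170247, plus strand: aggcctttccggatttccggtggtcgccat
The first 4 are members other than paralogs with such a run, and the last 3 are paralogs. Members not printed here include some without it, such as Rpl41, Rplp0 and Rps12 and the parents Rpl10 and Rpl39. Rps24 has a second annotated start (chr14:24490743-24490772) with no such run, and a gene was counted where any of its starts had one. Of the 58 members other than paralogs that matched a RefSeq promoter, 26 (44.8%) had the run, against 11.9% of 27025 genes. Of the 7 paralogs that matched, 1 (14.3%) had it, namely Rpl22l1. The letters CTTTC, searched on the gene's strand in the same 30 bases and often part of such a run, were in 15 of the 58 (25.9%) and in 4.43% of all genes. Among the 7 paralogs 1 (14.3%) had these letters, namely Rpl39l. A match is a description of these letters, and the annotated start can lie some bases from the one used in these cells.

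The values are FPKM, counts of sequenced fragments divided by transcript length and by the number mapped in the library, so levels of different genes can be compared per length. Depth was estimated from the steps between low values as 13.0 M to 18.2 M (mega) fragments per library. The estimate is coarse, since libraries of 186wt, 444wt and 456wt received the same value (14.6 M). Germ cell markers were present: the 11 meiotic markers found had a median of 43.1 FPKM and the 10 spermatogonial markers a median of 36.6 FPKM, while 6 markers of round spermatids had a median of 0.341 FPKM. The 9 markers of Sertoli cells, the somatic cells of the tubule, had a median of 106 FPKM, so the labelled cells were not the only ones in the samples. In such mixed samples, fewer cells of a type and less RNA per cell cannot be told apart.

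All 85 members had at least 0.1 FPKM in all 12 libraries, and 71 had a mean above 100 FPKM. Over the 77 members other than paralogs the median of the mean levels was 427 FPKM, with 96.5 FPKM at the 10th percentile and 759 FPKM at the 90th. The small subunit genes had a median of 534 FPKM and ranged from 160 to 1020 FPKM. The large subunit genes had a median of 372 FPKM and ranged from 18.4 to 1111 FPKM.

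Rpl13a, a large subunit protein that also takes part in repressing certain mRNAs, had the highest level per length, with 963 FPKM in 186wt, 1095 in 343wt, 1184 in 444wt and 1201 in 456wt. Its mean was 1111 ± 109 FPKM (SD, n = 4), and the sample with the lowest level was 186wt. The next in order were Rplp1 at 1021 ± 138 FPKM, Rps24 at 1020 ± 151, Rpl41 at 904 ± 61.5 and Rplp0 at 903 ± 116. Each of these differed from its neighbour in the order by less than the larger of the SDs of the pair. These SDs are between sample numbers, in which most members moved together. Within every sample number Rpl13a was above Rplp1, and Rps24 was above Rpl41, narrowly so in 186wt (842 and 841 FPKM). The order of Rplp1 and Rps24, and that of Rpl41 and Rplp0, changed between sample numbers. At the other end stood the paralog Rpl3l at 1.50 ± 0.449 FPKM, Rpl5 at 18.4 ± 2.78, Rpl31 at 25.3 ± 3.16, the paralog Rpl7l1 at 37.8 ± 3.30 and the paralog Rpl10l at 38.1 ± 8.56 (SD, n = 4).

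**Figure D1:**
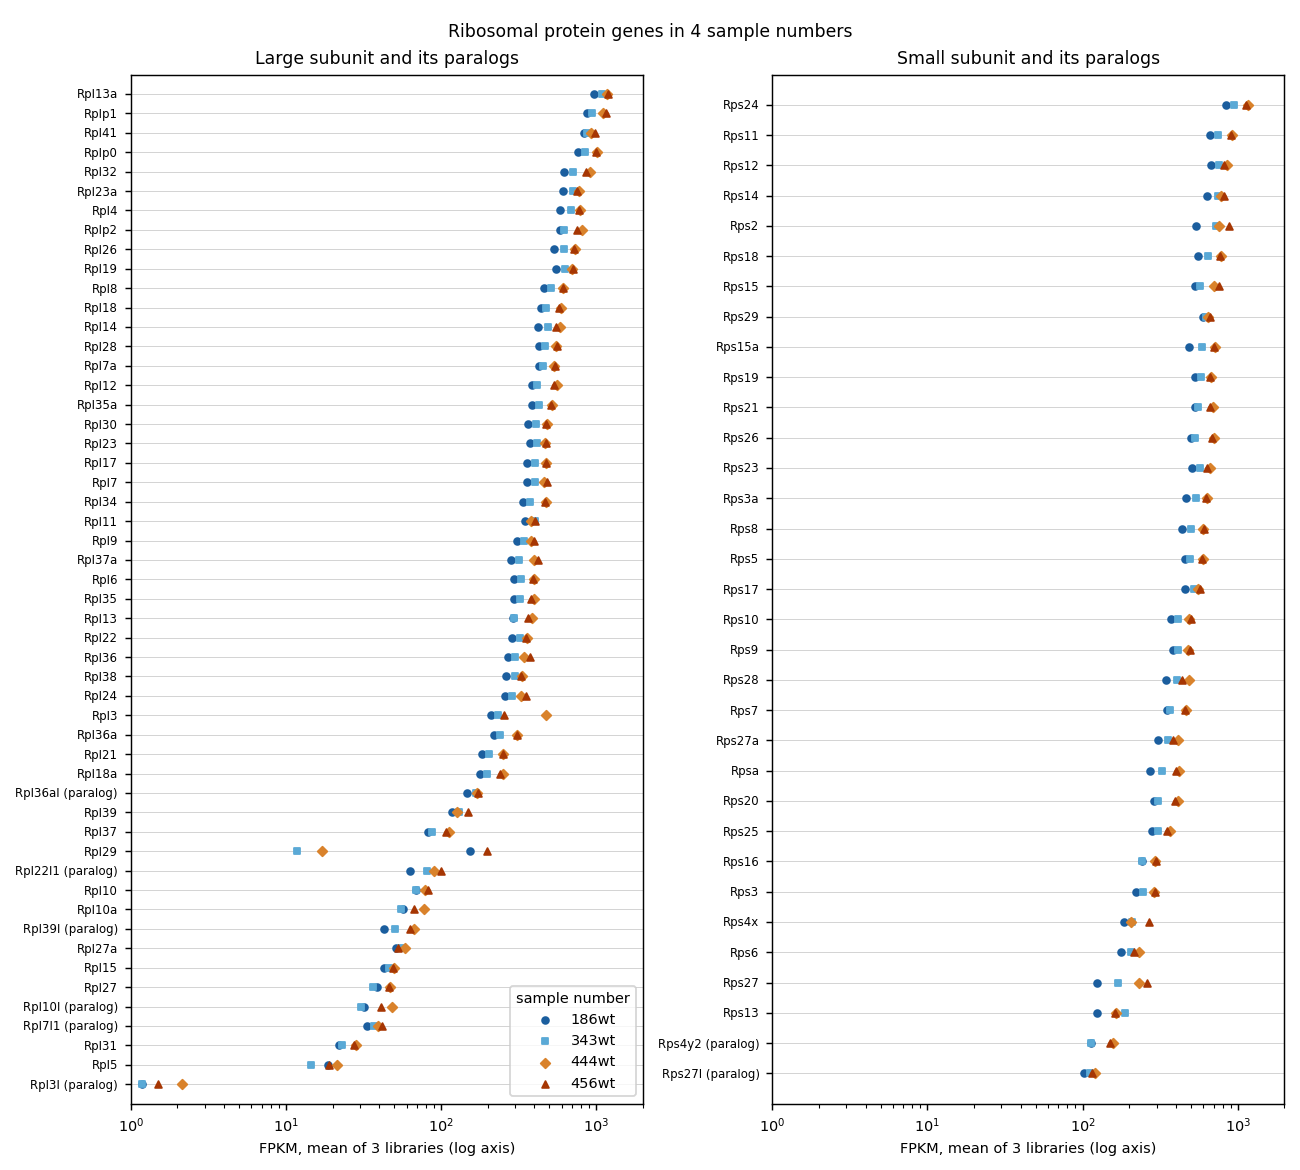
FPKM of each member (log axis), as the mean of 3 libraries in each of 4 sample numbers, with large subunit genes and their paralogs on the left and small subunit genes and theirs on the right. Most members lie above 100 FPKM with 186wt at the left of its row, and Rpl29 spreads from 11.7 to 199 FPKM.

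Rpl5 and Rpl31 encode proteins that every ribosome carries, and both had near-identical relatives elsewhere in the table. A copy was defined as a predicted gene (symbol Gm with a number) or named pseudogene (symbol ending in -ps and a number) that shares at least 1 identical 100-base window with a transcript of a member and does not overlap it. Reads from such windows fit both genes. Of the 84 members with annotated transcripts, 70 shared at least 1 window with another gene that does not overlap them and 14 shared none. The table held 365 copies, of which 245 had under 1 FPKM and 18 had over 100 FPKM.

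Each of the 9 members other than paralogs under 100 FPKM had copies that together exceeded it. Rpl5, which binds 5S ribosomal RNA, had 18.8 FPKM in 186wt, 14.6 in 343wt, 21.3 in 444wt and 18.9 in 456wt. Its copies had 420, 478, 564 and 551 FPKM in the same order, nearly all of it in Gm15500 (mean 502 FPKM), a predicted gene on chromosome 7. The copies were above Rpl5 in each sample number, and Rpl5 made up 3.53% of the sum.

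The other 8 under 100 FPKM, from Rpl31 to Rpl37, made up 4.46% to 25.6% of the sum with their copies. Rpl31 stood beside Gm8759 (538 FPKM), Rpl27a beside Gm7536 (775 FPKM) and Rpl10a, a protein near the exit site for tRNA, beside Rpl10a-ps1 (446 FPKM). With copies added, these 9 genes came to 345 to 834 FPKM. Among all 77 members other than paralogs, 16 held less than 50% of their sum, 7 held between 50% and 95%, and 54 held at least 95%.

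**Figure D2:**
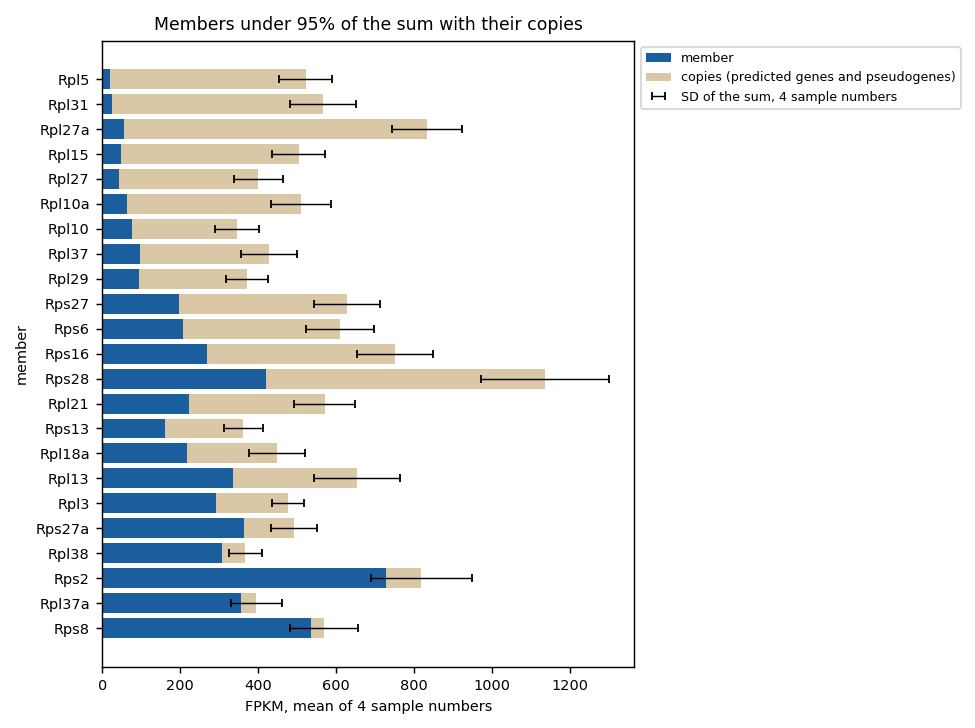
Mean FPKM over 4 sample numbers of the 23 members other than paralogs that held under 95% of the sum with their copies, with the member in blue, its copies in tan and the SD of the sum between sample numbers as bars. The blue part is shortest in Rpl5 (3.53% of the sum) and the sums range from 345 to 1135 FPKM.

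The levels of different members lay closer together once copies were added. The ratio of the 90th to the 10th percentile over the 77 members was 7.86 for the members alone and 2.40 for the sums, and the coefficient of variation over members was 55.8% and 37.2%. The lowest sum was 136 FPKM, for Rpl39, and the highest was 1135 FPKM, for Rps28 with Gm10443. The median of the sums was 606 FPKM for the small subunit and 486 FPKM for the large subunit. This summing was chosen after the values were seen, and it counts copies that may be transcribed themselves, which was not tested.

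In Rpl29 and Rpl3 by sample number, and in Rps27 by library, the member was high where its copies were low. Rpl29 had 153 FPKM in 186wt, 11.7 in 343wt, 17.1 in 444wt and 199 in 456wt, the widest range of all members (4.07 on the log2(FPKM + 0.1) scale). Its copies had 158, 330, 401 and 215 FPKM, mostly in Gm13841 on chromosome 5, high where Rpl29 was low. The sums were 311, 341, 419 and 413 FPKM.

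Rpl3, a core protein near the peptidyl transferase centre, had 209 FPKM in 186wt, 233 in 343wt, 473 in 444wt and 255 in 456wt. Its copies, led by Rpl3-ps1 on the X chromosome, had 215, 243, 3.62 and 269 FPKM, so that 444wt had the highest Rpl3 and almost no FPKM in the copies. The sums were 424, 477, 477 and 524 FPKM.

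Rps27, a small subunit zinc finger protein, differed among libraries of the same sample number. In 186wt its 3 libraries had 52.8, 197 and 122 FPKM, and its copies had 458, 350 and 422 FPKM in the same libraries. In 456wt Rps27 had 140, 229 and 412 FPKM and its copies 575, 496 and 294. Of the 100-base windows of Rps27, 98.4% were shared with Gm9846. The sums per sample number were 534, 579, 680 and 715 FPKM.

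For Rps2, a protein at the mRNA entry channel, the 4 levels were 542, 728, 760 and 877 FPKM, and those of its 26 copies were 139, 12.3, 198 and 16.8 FPKM. Rps13 was the single member highest in 343wt, with 189 FPKM there against 125, 165 and 162 FPKM in 186wt, 444wt and 456wt. The copies of Rps13 were lowest in 343wt, at 146 FPKM. Over all 77 members other than paralogs, 3 had a range over 1 on the log2 scale, namely Rpl29, Rpl3 and Rps27, and of the sums none had, the widest being 0.61.

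Nearly all members were lowest in 186wt, and most were highest in 444wt or 456wt. By the mean of 3 libraries, 78 of 85 members were lowest in 186wt (26.1% of the 20795 genes tested were), 6 in 343wt (33.3%) and 1, Rpl3l, was tied between both. The highest level was in 444wt for 50 members (36.1%), in 456wt for 34 (27.3%) and in 343wt for 1 (17.5%). In 69 members every 186wt library was below every library of the other 3 numbers (6.76%), and 26 members had every 444wt library above all others (11.5%), as did 20 members for 456wt (9.18%). The sums with copies were lowest in 186wt for 77 of 77 members other than paralogs.

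With limma on log2(FPKM + 0.1), 83 of 85 members differed between the 4 sample numbers (58.2% of the 20795 genes did whose mean reached 0.1 FPKM) at an adjusted p-value under 0.05. The 2 that did not pass were Rps27 (adjusted p = 0.283) and Rpl27a (adjusted p = 0.210). With copies summed into the members, 85 of 85 passed. The 3 libraries of a number may come from 1 RNA, so these tests compare these 4 samples and not a condition.

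Each number was also set against the mean of the other 3, and these 4 contrasts share samples. In 186wt, 78 members were lower (21.9% of genes tested) and 1 was higher (14.8%). In 343wt, 62 were lower (25.6%) and 2 were higher (14.5%). In 444wt, 72 were higher (26.5%) and 2 were lower (17.8%), and in 456wt, 74 were higher (22.9%) and 1 was lower (13.6%).

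The median member differed from the other numbers by -0.31 in 186wt on the log2 scale, where all genes tested had a median of -0.05. The medians were -0.11 in 343wt (all genes -0.10), 0.22 in 444wt (0.08) and 0.20 in 456wt (0.05). In 343wt the member median was therefore close to that of all genes, and the count of lower members there fell from 62 to 38 when libraries were scaled by the median of ratios. It was 35 without 444wt and 35 without 456wt. The members that went the other way were Rpl29 in 186wt, Rpl11 and Rps13 in 343wt, Rps4x and Rpl29 in 444wt and Rpl3 in 456wt. With copies summed, Rpl11 in 343wt and Rps4x in 444wt remained of these.

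**Figure D3:**
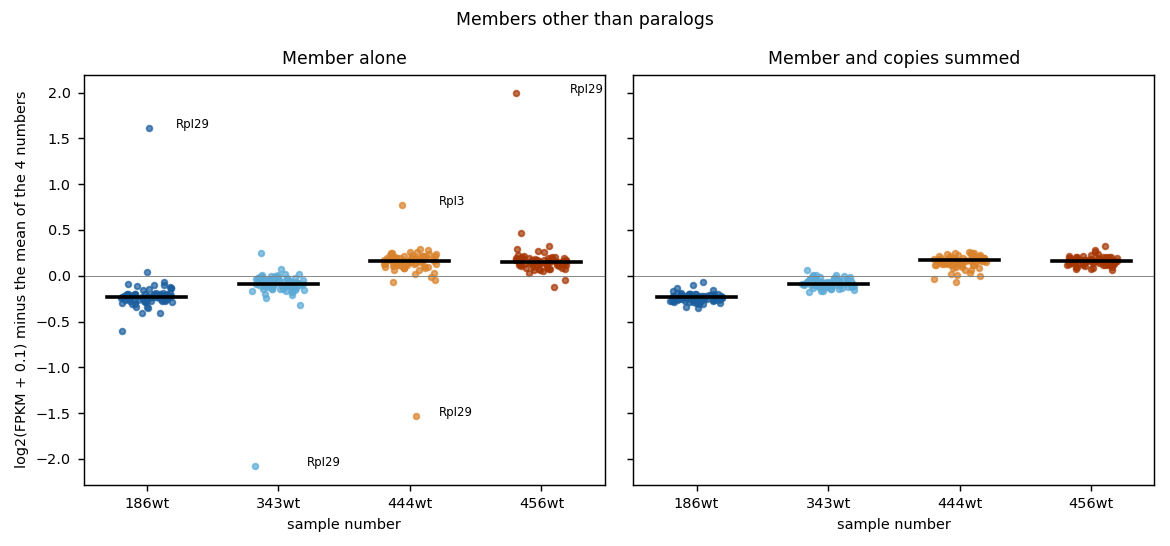
Difference of each of the 77 members other than paralogs from its own mean over the 4 sample numbers on the log2(FPKM + 0.1) scale, for the member alone (left) and with copies summed (right), with the median as a bar. Rpl29 stands apart in all 4 numbers and Rpl3 in 444wt on the left, and on the right every range is at most 0.61.

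Markers of cell types moved with the sample numbers as well. The summed level of the 9 Sertoli markers was 4399 FPKM in 186wt, 4570 in 343wt, 2549 in 444wt and 2723 in 456wt. By the same test all 9 were lower in 444wt and in 456wt (17.8% and 13.6% of all genes). All 9 were higher in 186wt and in 343wt (14.8% and 14.5%). The 10 spermatogonial markers summed to 688, 692, 981 and 859 FPKM, and all 10 were lower in 186wt (21.9% of all genes). Of these 10, 8 were lower in 343wt (25.6%), 9 higher in 444wt (26.5%) and 9 higher in 456wt (22.9%). The 11 meiotic markers summed to 694, 504, 819 and 684 FPKM, lowest in 343wt, where all 11 were lower (25.6% of all genes). Of these 11, 6 were higher in 186wt (14.8%) and 2 lower (21.9%). In 444wt 10 were higher (26.5%) and 1 lower (17.8%), and in 456wt 1 was higher (22.9%) and 6 lower (13.6%). The 6 peritubular myoid markers summed to 670, 322, 848 and 1459 FPKM. The 6 Leydig markers summed to 56.5, 110, 16.1 and 60.9 FPKM and the 6 erythroid markers to 30.3, 77.9, 94.9 and 173 FPKM. The 6 endothelial markers summed to 17.9, 22.7, 14.5 and 37.9 FPKM and the 6 macrophage markers to 14.7, 33.3, 7.64 and 28.6 FPKM. No marker of these lists was at 0 in the mean over the samples, and the part of these cells in the differences between sample numbers was not tested.

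The members took 6.20% of all FPKM in 186wt, 6.90% in 343wt, 8.02% in 444wt and 8.06% in 456wt. The libraries of 186wt and 343wt did not overlap each other or the other numbers, while those of 444wt and 456wt overlapped. The mean was 7.30% ± 0.904 (SD, n = 4), and the shares differed between the numbers (exact permutation test over 15400 arrangements of the 12 libraries, p = 0.00013). With copies added the shares were 7.60%, 8.46%, 9.84% and 9.87%. Mitochondrially encoded genes took 11.8%, 10.6%, 10.1% and 9.02% of all FPKM in the same order, and without them the shares of the members were 7.04%, 7.72%, 8.92% and 8.86%.

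**Figure D4:**
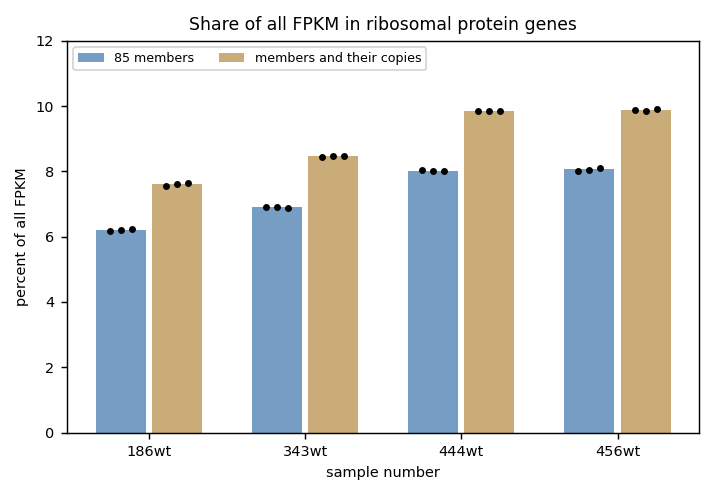
Percent of all FPKM in the 85 members (blue) and in the members with their copies (tan), as bars for the mean of 3 libraries and points for each library. The bars of 444wt (8.02%) and 456wt (8.06%) are higher than those of 186wt (6.20%) and 343wt (6.90%).

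The stalk that recruits elongation factors is built from Rplp0, Rplp1 and Rplp2 on a base that includes Rpl12. Rplp0 had 767, 847, 1005 and 993 FPKM in 186wt, 343wt, 444wt and 456wt. Rplp1 had 869, 944, 1108 and 1164 FPKM, and Rplp2 had 584, 622, 812 and 754 FPKM. All 4 stalk genes were lower in 186wt and in 343wt and higher in 444wt and in 456wt, as were 78, 62, 72 and 74 of the 85 members (21.9%, 25.6%, 26.5% and 22.9% of all genes).

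Rpl12 had the widest range of the 4, with 385, 418, 561 and 534 FPKM and a log2 difference of -0.38 ± 0.0132 (SE) in 186wt against the others (limma, adjusted p = 2.54e-09). Rplp1 and Rplp2 stand in more than 1 copy in the ribosome, and their mean levels per length were 1021 and 693 FPKM, against 903 FPKM for Rplp0.

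Rpl5 and Rpl11 bind 5S ribosomal RNA and, outside the ribosome, MDM2. Rpl11 had 351, 403, 381 and 405 FPKM, a narrow range of 0.21 on the log2 scale, and was higher in 343wt by 0.09 ± 0.0124 (SE, limma, adjusted p = 0.0001). With copies, Rpl5 had 439, 493, 585 and 570 FPKM, lowest in 186wt.

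The 6 genes of proteins lining the tunnel through which the peptide leaves were led by Rpl23a (714 FPKM) and Rpl4 (707 FPKM), and the widest ranges in the list were those of Rpl26 (0.45 on the log2 scale) and Rpl4 (0.43). All 6 were lower in 186wt and higher in 456wt, 4 were lower in 343wt and 5 were higher in 444wt, directions that most members shared (78, 74, 62 and 72 of 85 in the same order of contrasts, against 21.9%, 22.9%, 25.6% and 26.5% of all genes). Of 9 members mutated in Diamond-Blackfan anemia, 8 were lower in 186wt (21.9% of all genes) and 8 higher in 456wt (22.9%), and Rpl5 alone did not pass in either. With its copies summed, Rpl5 was lower in 186wt by -0.32 ± 0.0149 on the log2 scale (SE, limma, adjusted p = 2.21e-08) and higher in 456wt by 0.18 ± 0.0149 (adjusted p = 1.92e-06). Rps24 (1020 FPKM) and Rps19 (613 FPKM) were the highest of these, and Rpl5 (0.54) and Rps26 (0.49) had the widest ranges. With copies summed, the range of Rpl5 was 0.41 and that of Rps26 0.49.

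The narrowest ranges of all members on the log2(FPKM + 0.1) scale were those of Rps29 (0.14), Rpl27a (0.20), Rpl11 (0.21), Rpl15 (0.21) and Rpl41 (0.22). Rps29 had 602, 622, 639 and 661 FPKM, and its difference in 186wt was -0.09 ± 0.0151 (SE, limma, adjusted p = 0.00056). Rpl15 and Rpl27a had low levels beside far higher copies, and with copies their ranges were 0.41 and 0.35.

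The 4 X-linked members were Rpl36a, Rps4x, Rpl39 and Rpl10. Rpl36a had 219, 242, 311 and 310 FPKM, and Rps4x had 184, 209, 204 and 268 FPKM. Rpl39 had 119, 130, 126 and 149 FPKM, and Rpl10 had 69.4, 69.0, 78.9 and 82.1 FPKM. By the mean of 3 libraries Rpl36a was near equal in 444wt and 456wt, and the others were highest in 456wt. For Rpl36a and Rpl10 the libraries of 444wt and 456wt overlapped.

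In 444wt, 1 of these 4 was called higher (26.5% of all genes) and 1 lower (17.8%). All 4 were higher in 456wt (22.9%), as were most members. In 186wt and in 343wt, 3 were lower (21.9% and 25.6%), again as were most members. Rps4x in 444wt differed from the mean of the other 3 numbers by -0.09 ± 0.0129 on the log2 scale (SE, limma, adjusted p = 0.000111). Its level in 444wt (204 FPKM) was above that in 186wt (184 FPKM) and well below that in 456wt (268 FPKM). By the same contrast 72 of 85 members were higher in 444wt. Rpl39 differed there by -0.06 ± 0.0335 (adjusted p = 0.151). A difference between X-linked and other members was not tested.

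The 8 paralogs were compared with their parents. None of their 100-base windows was found in the parent, so no stretch of that length is identical between a paralog and its parent, and their coding sequences were 54.0% (Rpl7l1 and Rpl7) to 87.9% (Rpl36al and Rpl36a) identical. By the mean of 3 libraries every paralog had less FPKM than its parent in each of the 4 sample numbers. Of single libraries, 2 of 12 had more Rps27l than Rps27, namely library 1 of 186wt (104 against 52.8 FPKM) and library 3 of 343wt (110 against 74.1 FPKM). The other 7 paralogs were below the parent in all 12. With 4 numbers the exact two-sided sign-flip permutation test cannot go below p = 0.125, which is the value in all 8 pairs.

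Rpl10l, an autosomal, intronless paralog of X-linked Rpl10 known from male meiosis, had 31.9, 30.5, 48.7 and 41.3 FPKM. That was 45.9%, 44.2%, 61.7% and 50.4% of Rpl10 alone, highest in 444wt. Rpl10 made up 21.7% of the sum with its copies, led by Rpl10-ps3 (230 FPKM), and against this sum Rpl10l was at 11.1%, 9.57%, 13.6% and 9.92%.

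Rpl39l, an autosomal paralog of the exit tunnel protein Rpl39, had 42.7, 50.9, 67.2 and 62.9 FPKM. Its share of Rpl39 was 36.0%, 39.1%, 53.3% and 42.4%, also highest in 444wt. Copies of Rpl39 changed it little, from a mean of 42.7% to 41.0%. The paralog of X-linked Rps4x, listed as Rps4y2 (RefSeq synonym Rps4l) and lying on chromosome 6, had 113, 114, 157 and 151 FPKM, which was 61.3%, 54.6%, 77.0% and 56.3% of Rps4x.

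Rpl36al, the autosomal paralog of X-linked Rpl36a, had 148, 168, 172 and 173 FPKM. It stood at 67.6%, 69.6%, 55.2% and 55.9% of Rpl36a, near equal in 444wt and 456wt. The ratios of Rpl10l, Rpl39l and Rps4y2 were thus highest in 444wt, while that of Rpl36al was low in both 444wt and 456wt. Summed markers of meiotic cells (819 FPKM) and spermatogonia (981 FPKM) were also highest in 444wt. Those of Sertoli cells (2549 FPKM), Leydig cells (16.1 FPKM), endothelial cells (14.5 FPKM) and macrophages (7.64 FPKM) were lowest there. Those of peritubular myoid cells (848 FPKM) and erythroid cells (94.9 FPKM) were not, and in 444wt stood above 186wt and 343wt and below 456wt. The part of all these cells in the ratios was not tested.

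The difference of paralog and parent on the log2(FPKM + 0.1) scale was compared between the numbers by an exact permutation test over 15400 arrangements, adjusted over the 8 pairs. It varied between the numbers for Rpl39l (adjusted p = 0.00104), Rps4y2 (0.00104), Rpl36al (0.0061) and Rpl10l (0.00935). For Rpl10l the call rested on 444wt, since without it the adjusted p was 0.367 (exact permutation test). For Rpl36al the adjusted p was 0.0571 without 186wt, though the difference still ranged over 0.33 on the log2 scale between 343wt and 444wt.

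Among the pairs with an autosomal parent, Rpl22l1, a paralog of the RNA-binding protein Rpl22, had 63.1, 80.9, 90.8 and 99.9 FPKM, or 22.0%, 25.1%, 25.3% and 28.3% of Rpl22. Its difference from Rpl22 varied between the numbers (exact permutation test, adjusted p = 0.00173, and 0.0571 without 186wt). Rpl7l1, whose protein acts in making the large subunit, had 33.6, 37.0, 39.0 and 41.4 FPKM, or 9.32%, 9.21%, 8.50% and 8.60% of Rpl7 (exact permutation test, adjusted p = 0.0274). That call was lost without any 1 of 7 libraries, namely library 3 of 186wt and all libraries of 343wt and 444wt (adjusted p = 0.0511 to 0.0625, exact permutation test). It was also lost without 186wt (0.0571), 343wt (0.0667) or 444wt (0.0914).

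Rps27l had 102, 111, 121 and 115 FPKM, which was 82.4%, 65.7%, 52.5% and 44.2% of Rps27 alone, and the difference did not pass (exact permutation test, adjusted p = 0.513). Against Rps27 with its copies it was 19.1%, 19.2%, 17.8% and 16.1%, and the difference passed (exact permutation test, adjusted p = 0.00208). The first difference ranged over 0.90 on the log2 scale between the sample numbers and the second over 0.26.

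Rpl3l, a paralog known from heart and skeletal muscle, had 1.18, 1.18, 2.14 and 1.50 FPKM and was at 0.529% ± 0.0623 (SD, n = 4) of Rpl3. Its difference from Rpl3 did not pass (exact permutation test, adjusted p = 0.208), and with the copies of Rpl3 it did (adjusted p = 0.0203, exact permutation test), with 444wt highest at 0.448%. Against Rpl3 alone, 444wt was the lowest of the 4 at 0.451%, so adding copies turned the direction for that sample.

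**Figure D5:**
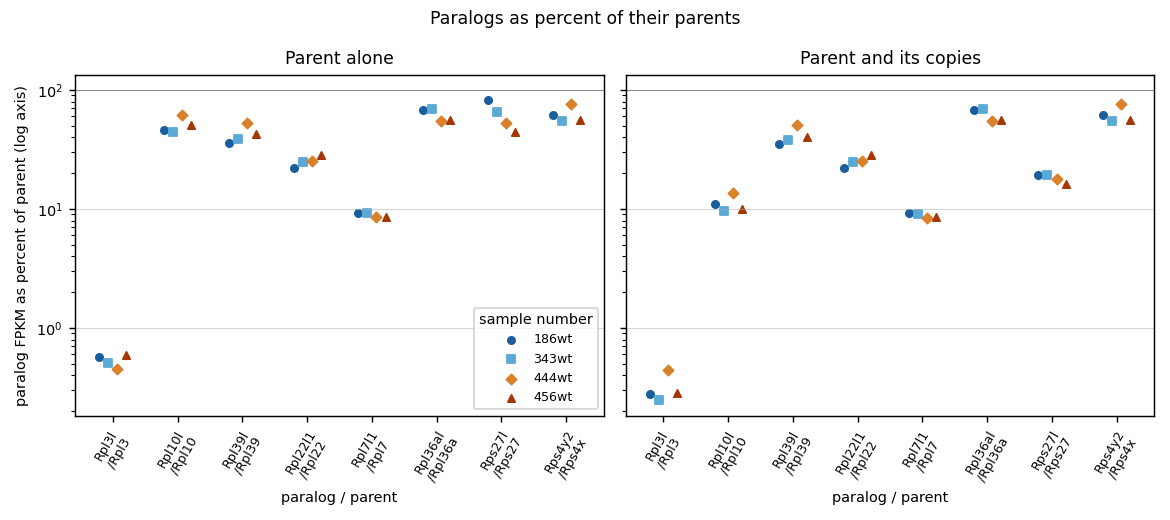
FPKM of each paralog as percent of its parent (log axis) in 4 sample numbers, against the parent alone (left) and the parent with its copies (right). Every point lies below 100%, and the points of Rps27l spread from 44.2% to 82.4% on the left and from 16.1% to 19.2% on the right.

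Ribosomal proteins with other symbols differed in the same directions. Fau, which encodes a fusion with a small subunit protein, had 336, 372, 426 and 438 FPKM. Gnb2l1 (RACK1, on the head of the small subunit) had 279, 307, 364 and 379 FPKM. Both were lower in 186wt and higher in 444wt and in 456wt, the same directions as most members.

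Other genes of translation were counted by the same test. Of all genes tested, 21.9% were lower in 186wt, 25.6% lower in 343wt, 26.5% higher in 444wt and 22.9% higher in 456wt. Of 12 elongation and termination genes, 10 were lower and 1 higher in 186wt, and 6 were lower and 1 higher in 343wt. In 444wt 10 were higher and none lower, and in 456wt 9 were higher and 2 lower. They were led by Eef1a1, which brings tRNA to the ribosome (2684 FPKM), and Eef2 (769 FPKM), and the widest ranges were those of Eef1a2 (1.14 on the log2 scale, at 0.311 FPKM) and Eif5a2 (0.57). Of 32 initiation genes tested, 22 were lower and 1 higher in 186wt, and 13 were lower and 4 higher in 343wt. In 444wt 21 were higher and none lower, and in 456wt 15 were higher and 3 lower. The highest levels were those of the helicase Eif4a1 (572 FPKM) and the poly(A) binding protein Pabpc1 (362 FPKM). The widest ranges there belonged to Pabpc2 (1.50 on the log2 scale) and Pabpc6 (0.71), both under 1 FPKM.

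Genes that make ribosomes were counted in the same way. Of 46 ribosome biogenesis genes, 30 were lower and none higher in 186wt, and 25 were lower and 4 higher in 343wt. In 444wt 30 were higher and 1 lower. In 456wt 12 were higher and 3 lower, a share of higher genes near the 22.9% of all genes. Npm1 (575 FPKM) and Fbl, the methyltransferase of ribosomal RNA (176 FPKM), were the highest, and Utp14b (0.66) and Mdn1 (0.54) had the widest log2 ranges. Of 17 genes of RNA polymerase I transcription, 9 were lower and 1 higher in 186wt, and 6 were lower and 4 higher in 343wt. In 444wt 9 were higher and 4 lower, and in 456wt 4 were higher and 2 lower, again near the share of all genes. Polr2f (135 FPKM) and Ubtf (120 FPKM) were the highest of these, and Polr2e (0.51) and Polr1c (0.48) had the widest log2 ranges.

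Regulators of TOP mRNAs had 13 identifiers, of which 3 were lower and 3 higher in 186wt, and 4 were lower and none higher in 343wt. In 444wt 8 were higher and none lower, and in 456wt 3 were higher and 3 lower. Outside 444wt these counts were near the shares of all genes (21.9% lower in 186wt, 25.6% lower in 343wt, 22.9% higher in 456wt). Cnbp (212 FPKM) was the highest and Larp1, which binds the TOP motif, was next at 58.5 FPKM with a log2 range of 0.07. The widest log2 ranges were those of a second Larp1b identifier (0.47) and the translation repressor Eif4ebp1 (0.45).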

How the data were processed

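RNA was extracted from enriched germ cells of B6 males and sequenced as paired-end reads. The authors used Bowtie 0.12.9 for alignment against transcripts of NCBI build 37 (mm9), and RSEM 1.2.8 gave the deposited FPKM values. RSEM shares out a read that matches several genes among them by estimated proportions. A strand setting is not given in the sources used here, so values of overlapping antisense genes can include each other's reads. The deposited table has 12 columns, all of which were used. The 9 other samples of the series were not analysed here.

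The 3 libraries of a sample number were averaged, and means ± SD are over 4 numbers. The 20795 genes whose mean reached 0.1 FPKM entered the linear models of limma 3.58.1 under R 4.3.3 (eBayes with trend) on log2(FPKM + 0.1), with Benjamini-Hochberg adjustment over these genes. Fold changes on this scale understate the change of low genes. Single values were compared by exact permutation tests in Python 3.11.15 with numpy 2.4.6 and scipy 1.17.1. Copies were found from shared 100-base windows of transcripts in GENCODE M1, where Rpl41 is missing, and coding sequences were aligned with Biopython 1.88. Depth was estimated from 360 genes, and the scripts were tested on simulated data. 5′ windows are from RefSeq (GRCm38.p6), and 65 members matched an entry.

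The members and lists were chosen with earlier results of these data known. Genes are named by rule: the 5 highest and 5 lowest members, the 5 widest and 5 narrowest ranges, all paralog pairs, the stalk, 5S RNA-binding and X-linked members, the ribosomal proteins with other symbols and, of the other lists, the 2 highest genes and the 2 with the widest ranges. One gene that this rule covers is not reported here. Rps13, Rps28, Rpl10a and the copies were named after their values were seen. Alternatives were other pseudocounts, filters and scalings, leaving out libraries or sample numbers, a replicate block and, added after seeing the data, copies summed into their member.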

Additional observations from a re-analysis of the deposited data

How the results depend on the processing

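Over 25 alternatives the number of members that differed between the sample numbers stayed between 79 and 85. The lower members of 186wt numbered 75 to 84, the higher members of 444wt 62 to 80 and those of 456wt 65 to 83. The lower members of 343wt numbered 62, 38 under median-of-ratios scaling, and 35 to 78 when a library or a sample number was left out. The mean paralog differences kept their direction under all alternatives run. Within 186wt, that of Rps27l and Rps27 turned from -0.28 to 0.23 on the log2 scale without library 2. The adjusted p-value (exact permutation test) of Rpl3l and Rpl3 was 0.0119 with a pseudocount of 1 and 0.0203 with copies summed into the parent, and that of Rps27l and Rps27 was 0.00208 with copies summed. When a library or a sample number was left out, adjusted p-values ranged from 0.00686 to 0.367 for Rpl10l, 0.00173 to 0.0571 for Rpl22l1, 0.00312 to 0.0571 for Rpl36al and 0.0100 to 0.0914 for Rpl7l1, with fewer libraries and so fewer arrangements. The cause of these changes was not tested. The share of all FPKM stayed between 7.04% and 7.66% when a library or a sample number was left out. Summing identifiers of 1 symbol could give no other value, since no member has a second identifier.

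The library numbers 1 to 3 are shared by the groups but do not pair the libraries: deviations of same-numbered libraries from their group means correlated with r from -0.065 to 0.128 over 18 pairs. With the library number as a replicate block, 83 members differed between the sample numbers, the share of all FPKM differed (permutation within the block, p = 0.00347), and Rpl7l1 and Rpl7 had an adjusted p-value of 0.0579 (exact permutation within the block), where 0.00174 is the smallest p that 576 arrangements can give.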

Other observations

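Of the 365 copies, 31 had a mean above 10 FPKM and 18 above 100 FPKM. The highest was Gm7536, a relative of Rpl27a, at 775 FPKM, followed by Gm10443, a relative of Rps28, at 705 FPKM. Rpl3-ps1 had 212 FPKM in 186wt, 240 in 343wt, 0.473 in 444wt and 266 in 456wt, and 2 of its 3 libraries in 444wt were listed at 0.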
